A study of Homo sapiens with 4 samples.

Results

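The interleukin-1 (IL-1) family genes IL1A, IL1B, IL1RN and IL18, the receptor genes IL1R1, IL1R2 and IL1RAP, and the inflammasome genes CASP1 and NLRP3 were followed across 4 arrays. The members are these 9 of 19775 named genes, and all 24 of 54675 probe sets that the platform annotation assigns to 1 of them alone were taken. The cells were sublines of THP-1, a human monocytic leukemia line, made to express either Siglec-14 (Siglec-14/THP-1) or Siglec-5 (Siglec-5/THP-1). They stand for monocytes of people with and without a working SIGLEC14 gene. Each subline was kept for 6 h in serum-free medium, either with no bacteria (NTHi[-]) or with heat-killed nontypeable Haemophilus influenzae (NTHi) strain 2019 at 100 bacteria per cell (NTHi[+]). The 4 conditions are therefore Siglec-14,NTHi[-], Siglec-14,NTHi[+], Siglec-5,NTHi[-] and Siglec-5,NTHi[+], and 250 ng of total RNA from each was labeled for 1 Affymetrix U133 Plus 2.0 array. There were no replicate arrays, so no value below carries an error of its own. A difference between the lines compares 1 Siglec-14 subline with 1 Siglec-5 subline, and an effect of the Siglec cannot be told apart from other differences between these sublines. The sources used here do not give whether the sublines are clones or pools. In extracts of whole cultures, more RNA per cell and more expressing cells cannot be told apart.

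IL-1α and IL-1β, the products of IL1A and IL1B, signal through the receptor IL1R1 together with its accessory protein IL1RAP. The product of IL1RN, the IL-1 receptor antagonist, binds IL1R1 without recruiting IL1RAP, and IL1R2 is a decoy receptor that binds IL-1 without signaling. IL-1β and IL-18 are made as precursors that caspase-1, the product of CASP1, cuts once an inflammasome such as that of NLRP3 has assembled, so that transcript levels do not show how much active cytokine is released. In monocytes and macrophages, bacterial products acting through NF-κB typically induce IL1B and NLRP3 transcripts, while IL18 and CASP1 are transcribed without stimulation.

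Signals are intensities on a linear scale. A signal was taken as measured when it reached 16.02, the median of all signals on the 4 arrays, called the floor here. A ratio whose lower signal lay under the floor was computed against the floor and is given as a lower bound ("at least"). A gene is represented by its probe set with the highest mean signal, and its other probe sets are described beside it. Of the 24 probe sets, 16 reached the floor on all 4 arrays, 2 on some arrays and 6 on none. The arrays had sums of all signals between 12735500 and 14047100, medians between 15.1 and 16.5, and 3'/5' signal ratios between 0.974 and 1.03 for GAPDH and between 1.19 and 1.21 for ACTB, so this sign of RNA quality differed little between them. The median log2 ratio over 12282 genes whose mean signal reached the floor was 0.08 for NTHi in Siglec-14/THP-1, -0.10 for NTHi in Siglec-5/THP-1, -0.12 for Siglec-14/THP-1 over Siglec-5/THP-1 without NTHi and 0.06 with NTHi. Other scalings of the arrays moved these medians to values between -0.15 and 0.10. Of 13 monocytic markers 11 were measured and 9 reached the floor on all arrays, but CD14 lay below it on all 4, and the summed signal of the list ran from 8785 to 9972. That sum does not show opposite differences between the sublines. In the order of the conditions above, MPO read 1152, 1365, 2408 and 2186, lower in Siglec-14/THP-1. ITGAM (290, 353, 198 and 167) and TYROBP (329, 376, 205 and 186) were higher in Siglec-14/THP-1. The part of these markers in the other differences was not tested. Among markers of other cell types, CD3E, MS4A1, KLRD1, NCR1, CDH1, KRT19, COL3A1, CDH5, VWF and ALAS2 were below the floor on all arrays. Above it on all 4 were COL1A1 (266, 257, 141 and 132 in the order of the conditions above), EPCAM (64.2 to 88.3), KLRF1 (37.3 to 42.9), CD79A (28.7 to 37.4), HBB (27.4 to 43.7) and PECAM1. COL1A1 and PECAM1 were thus higher in Siglec-14/THP-1, and their part in the differences between the sublines was not tested. The endothelial list summed to 2315 and 2381 in Siglec-14/THP-1 and 777 and 633 in Siglec-5/THP-1, nearly all of it from PECAM1, which monocytic cells also express. SIGLEC14 has 0 probe sets of its own here. The 1 probe set of SIGLEC5 read 21.3 and 19.5 in Siglec-14/THP-1 and 4.13 and 21.6 in Siglec-5/THP-1, too near the floor to check the labels.

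**Figure D1:**
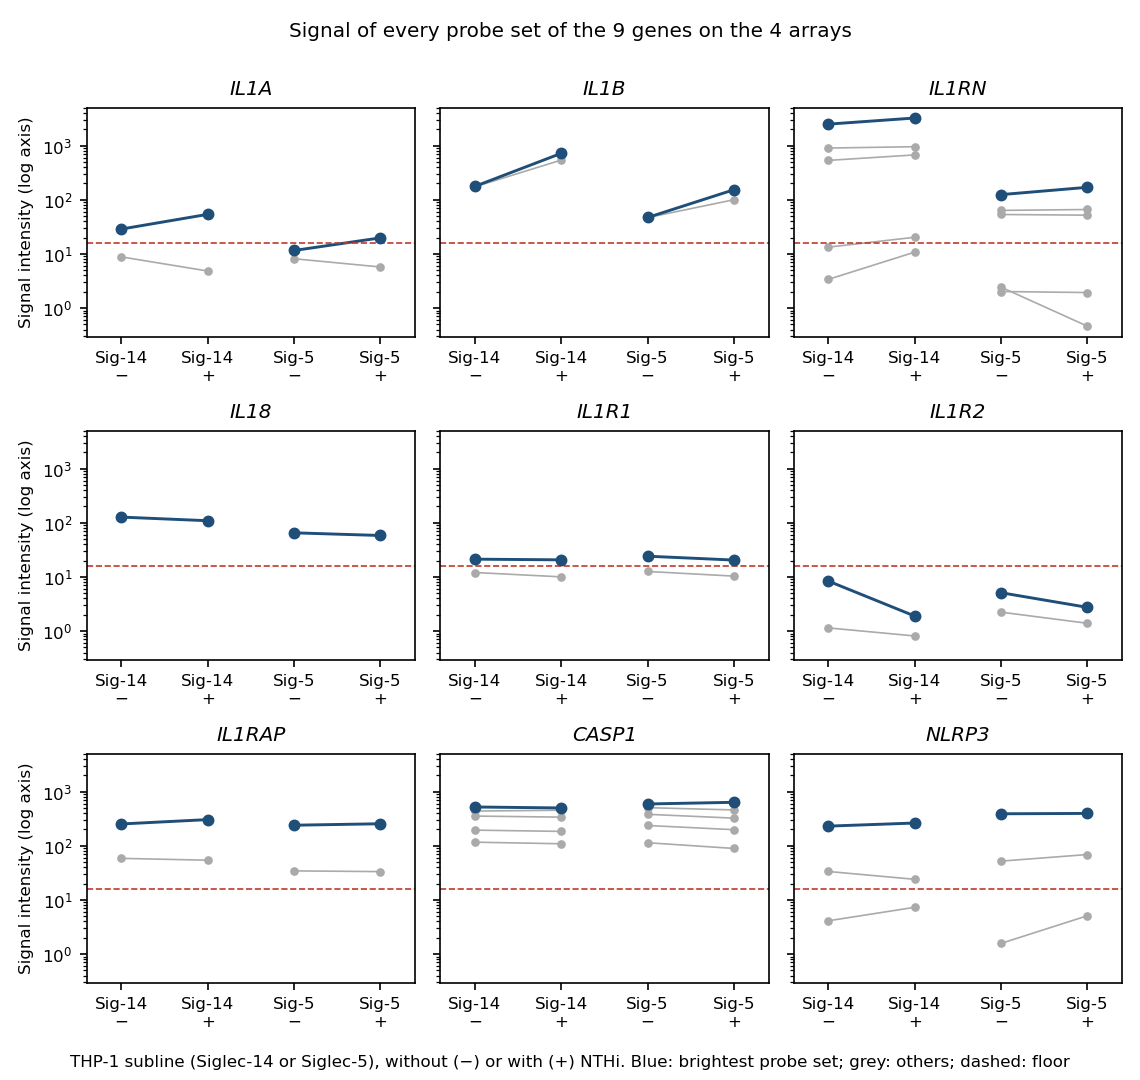
Signal intensity (log axis) of every probe set of the 9 genes on the 4 arrays, with lines joining the arrays of one subline without (−) and with (+) NTHi, the brightest probe set in blue, the others in grey and the floor of 16.02 dashed. IL1B sits higher with NTHi in both sublines, the 3 brightest probe sets of IL1RN sit about a decade higher in Siglec-14/THP-1, and both IL1R2 probe sets lie under the floor on every array.

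IL1B was the only member that passed the test for NTHi in the limma fit of the deposited signals, and it was also higher in Siglec-14/THP-1 than in Siglec-5/THP-1. IL1RN, which encodes the antagonist, showed the largest ratio between the sublines of the 8 members measured and a ratio below 3 with NTHi. IL18 and IL1A were higher and NLRP3 lower in Siglec-14/THP-1, while CASP1, IL1RAP and IL1R1 did not pass in that fit and IL1R2 was not measured above the floor. The RefSeq promoter windows of the members on which these differences turn are printed first. They are the 250 bases before the annotated start in GRCh38.p14, read 5' to 3' on the gene's strand, for IL1B, which rose with NTHi (chr2:112836780-112837029, minus strand), IL1RN, which differed most between the sublines, at its start sites 1 and 3 of 3 (chr2:113117721-113117970 and chr2:113127348-113127597, plus strand), and NLRP3, the member lower in Siglec-14/THP-1 (chr1:247415923-247416172, plus strand). Capitals mark matches, on either strand, to TATAAA, the NF-κB-type motif of 10 letters, TGANTCA (AP-1-type), TTNNGNAA (C/EBP-type) or GAGGAA (PU.1-type).
IL1B: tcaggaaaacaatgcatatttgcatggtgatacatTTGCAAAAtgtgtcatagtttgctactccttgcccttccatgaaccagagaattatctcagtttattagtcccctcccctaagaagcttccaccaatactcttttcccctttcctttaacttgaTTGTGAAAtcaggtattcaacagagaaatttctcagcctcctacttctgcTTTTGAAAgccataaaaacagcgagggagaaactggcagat
IL1RN start site 1: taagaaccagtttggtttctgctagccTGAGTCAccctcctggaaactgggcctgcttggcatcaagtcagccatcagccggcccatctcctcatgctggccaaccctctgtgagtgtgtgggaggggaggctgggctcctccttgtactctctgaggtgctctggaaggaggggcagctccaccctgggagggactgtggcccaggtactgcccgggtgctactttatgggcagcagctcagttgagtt
IL1RN start site 3: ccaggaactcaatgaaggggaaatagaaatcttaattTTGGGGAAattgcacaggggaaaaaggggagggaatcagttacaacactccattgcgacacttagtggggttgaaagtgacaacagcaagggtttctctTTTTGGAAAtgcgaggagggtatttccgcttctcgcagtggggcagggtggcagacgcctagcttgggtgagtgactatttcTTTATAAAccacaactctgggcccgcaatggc
NLRP3: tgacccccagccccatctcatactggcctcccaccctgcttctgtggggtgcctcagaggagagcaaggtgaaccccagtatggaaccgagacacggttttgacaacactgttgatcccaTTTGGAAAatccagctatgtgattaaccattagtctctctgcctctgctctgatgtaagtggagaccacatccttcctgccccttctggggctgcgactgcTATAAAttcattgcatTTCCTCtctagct

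The IL1B window held 3 C/EBP-type matches, with their first bases at -215, -91 and -41 from the annotated start, and none of the other letters. Matches to TTNNGNAA occur in 33.2% of the 35116 RefSeq promoter windows of this length. The window of IL1RN start site 1 held 1 AP-1-type match, TGAGTCA, a motif found in 6.57% of windows. Start site 3 had overlapping TATAAA matches on both strands at -32 and -30, a motif in 10.7% of windows, and 3 C/EBP-type matches, 2 of which overlap. The NLRP3 window held TATAAA at -29, 1 C/EBP-type match and 1 match to GAGGAA on the opposite strand, the last being a motif in 23.6% of windows. None of these 4 windows held the NF-κB-type motif, which 22.6% of windows do. These matches describe the letters of the windows and not binding. The table held 14 windows for 7 members, and IL18 and CASP1 are not among them.

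IL1B, the gene for IL-1β, had signals of 177 in Siglec-14,NTHi[-], 720 in Siglec-14,NTHi[+], 47.0 in Siglec-5,NTHi[-] and 153 in Siglec-5,NTHi[+]. Stimulated Siglec-5/THP-1 thus lay below resting Siglec-14/THP-1, and the order of the 4 arrays was the same on its second probe set, with 174, 541, 46.8 and 100. The fold induction by NTHi was 4.07 in Siglec-14/THP-1 and 3.26 in Siglec-5/THP-1 on the first probe set, and 3.11 and 2.14 on the second. In Siglec-14/THP-1 these are log2 ratios of 2.03 and 1.64. For comparison, the 2 brightest probe sets of 2617 genes of such intensity differed in this ratio by a median of 0.26 log2 units, and by under 0.90 in 95% of genes. Among the 12282 genes, the IL1B ratio had rank 7 from the highest in Siglec-14/THP-1 and rank 29 in Siglec-5/THP-1. IL1B belongs to the genes that the study selected on these same arrays, so its large ratios are not independent of that selection.

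The other genes for IL-1 family ligands differed less with NTHi. IL1A, the gene for IL-1α, had signals of 28.8 and 53.8 in Siglec-14/THP-1 without and with NTHi, a ratio of 1.87. In Siglec-5/THP-1 it had 11.6, below the floor, and 19.8, a ratio of at least 1.23. All 4 IL1A signals were near the floor, and its second probe set was under it on every array. IL18 had signals of 127 and 109 in Siglec-14/THP-1 and of 65.2 and 58.2 in Siglec-5/THP-1. With NTHi it was 1.17-fold and 1.12-fold lower, and the stimulated and resting arrays of each subline lay close together.

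IL1RN had signals of 2495 in Siglec-14,NTHi[-], 3236 in Siglec-14,NTHi[+], 124 in Siglec-5,NTHi[-] and 170 in Siglec-5,NTHi[+]. The lower Siglec-14/THP-1 array was far above the higher Siglec-5/THP-1 array. The ratio between the sublines was 20.05 without NTHi and 19.1 with NTHi, ranks 6 and 9 from the highest among the 12282 genes. Its next probe sets gave smaller ratios in the same direction. One read 901, 955, 63.6 and 66.1, a ratio between the sublines of 14.2 and 14.5, and the other 533, 674, 53.4 and 51.9, a ratio of 9.98 and 12.98. The remaining 2 were dim, and 1 of them reached the floor on a single array, Siglec-14,NTHi[+], with 20.3. The sources used here do not give which IL1RN transcripts each probe set reads.

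With NTHi, IL1RN was 1.30-fold higher in Siglec-14/THP-1 and 1.36-fold higher in Siglec-5/THP-1 on its brightest probe set, 1.06-fold and 1.04-fold on the second, and 1.26-fold higher and 1.03-fold lower on the third. IL1B and IL1RN thus gave opposite orders for NTHi and for the sublines. The log2 ratio with NTHi was lower for IL1RN than for IL1B, by -1.65 in Siglec-14/THP-1 and by -1.26 in Siglec-5/THP-1. The log2 ratio between the sublines was higher for IL1RN than for IL1B, by 2.41 without and 2.02 with NTHi. The difference with NTHi depends on the floor, since in Siglec-5/THP-1 it was -0.10 with the floor at the 75th percentile of all signals (105). At a floor of 422 it was -0.39 in Siglec-14/THP-1 and 0 in Siglec-5/THP-1. With the median over the probe sets of each gene, the difference between the sublines was 1.42 without and 1.37 with NTHi.

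Between the sublines, IL1B was 3.76-fold higher in Siglec-14/THP-1 without NTHi and 4.70-fold with NTHi, and 3.71-fold and 5.40-fold on its second probe set. IL18 was 1.95-fold higher without and 1.87-fold higher with NTHi. For IL1A the ratio was at least 1.80 without NTHi and 2.72 with NTHi. Of the 12282 genes, 99.1% without and 99.3% with NTHi had a lower ratio than IL1B. The shares were 96.3% and 94.4% for IL18, and 95.3% and 97.9% for IL1A. All 4 genes encoding ligands or the antagonist had the higher signal in Siglec-14/THP-1 in both conditions. The share of all genes with that pattern was not counted, so it cannot be read as a trait of these members.

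The receptor genes were dim or differed little. IL1R1, the signaling receptor, had signals of 21.3, 20.6, 24.1 and 20.5 in the order Siglec-14,NTHi[-], Siglec-14,NTHi[+], Siglec-5,NTHi[-] and Siglec-5,NTHi[+], just above the floor on each array, and its second probe set was below it. The 2 probe sets of IL1R2, the decoy receptor, stayed under the floor everywhere, with a highest signal of 8.36, and no ratio is given for it. IL1RAP, the accessory protein, had signals of 253, 304, 240 and 255 in the same order. Its arrays overlapped between the sublines, with ratios of 1.05 without and 1.19 with NTHi. Its dimmer probe set read 58.5, 54.1, 34.4 and 33.3, which is 1.70-fold and 1.62-fold higher in Siglec-14/THP-1, so that the 2 probe sets of IL1RAP gave differing sizes.

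NLRP3, the sensor of the inflammasome, had signals of 231 in Siglec-14,NTHi[-], 263 in Siglec-14,NTHi[+], 390 in Siglec-5,NTHi[-] and 395 in Siglec-5,NTHi[+]. Both Siglec-14/THP-1 arrays lay below both Siglec-5/THP-1 arrays, 1.69-fold lower without and 1.505-fold lower with NTHi, and 522 and 609 of the 12282 genes had a lower ratio. Its second probe set read 33.5, 24, 52.0 and 68.9, or 1.55-fold and 2.87-fold lower, and the third was below the floor. With NTHi, NLRP3 was 1.14-fold higher in Siglec-14/THP-1 and 1.02-fold in Siglec-5/THP-1 on the brightest probe set. The second was 1.396-fold lower and 1.32-fold higher, so the probe sets disagreed on the direction in Siglec-14/THP-1.

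CASP1, the gene for caspase-1, had signals of 520, 499, 591 and 635 in the order used above. The Siglec-14/THP-1 arrays were 1.14-fold lower without and 1.27-fold lower with NTHi. Its other 4 probe sets ranged in log2 ratio between the sublines from -0.29 to 0.03 without NTHi and from -0.10 to 0.29 with NTHi, on both sides of 0 in each condition. With NTHi, all 5 probe sets stayed between log2 ratios of -0.10 and 0.05 in Siglec-14/THP-1 and between -0.35 and 0.10 in Siglec-5/THP-1. A further probe set shared by CARD16 and CASP1, which was not counted here, read 209, 177, 305 and 187.

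**Figure D2:**
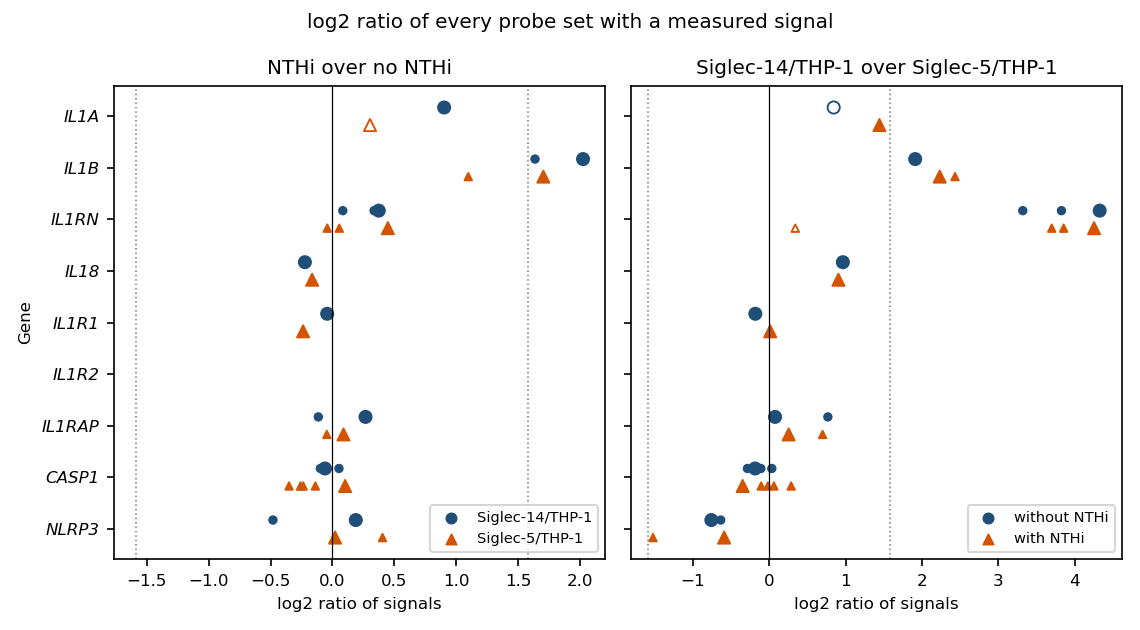
log2 ratio of signals for every probe set with a measured signal, with NTHi over no NTHi on the left (circles Siglec-14/THP-1, triangles Siglec-5/THP-1) and Siglec-14/THP-1 over Siglec-5/THP-1 on the right (circles without, triangles with NTHi). Large symbols are the brightest probe sets, open symbols lower bounds, and dotted lines a ratio of 3. IL1B alone passes the dotted line on the left, and IL1B and IL1RN pass it on the right.

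By the study's threshold of 3-fold, 1 member of 9, IL1B, was higher with NTHi in Siglec-14/THP-1 and 0 were lower, where 0.126% of all 19775 named genes were that much higher and 0.0455% lower. In Siglec-5/THP-1 it was again 1 member, IL1B, with 0 lower, beside 0.172% of all named genes higher and 0.0253% lower. Between the sublines, 2 members, IL1B and IL1RN, were at least 3-fold higher in Siglec-14/THP-1 without NTHi and 0 lower, beside 0.814% and 0.0759% of all named genes. With NTHi these were the same 2 members and 0 lower, beside 1.08% and 0.0253%. Restricted to the 12282 genes whose mean signal reached the floor, which hold 8 members, the shares higher were 0.204%, 0.277%, 1.31% and 1.74% and the shares lower 0.0733%, 0.0407%, 0.122% and 0.0407% in the order given. The median log2 ratio of these 8 members was 0.23 for NTHi in Siglec-14/THP-1, 0.10 for NTHi in Siglec-5/THP-1, 0.46 between the sublines without NTHi and 0.58 with NTHi, against the medians of all genes given above. The pairs of comparisons share arrays, so they are not separate evidence of each other.

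**Figure D3:**
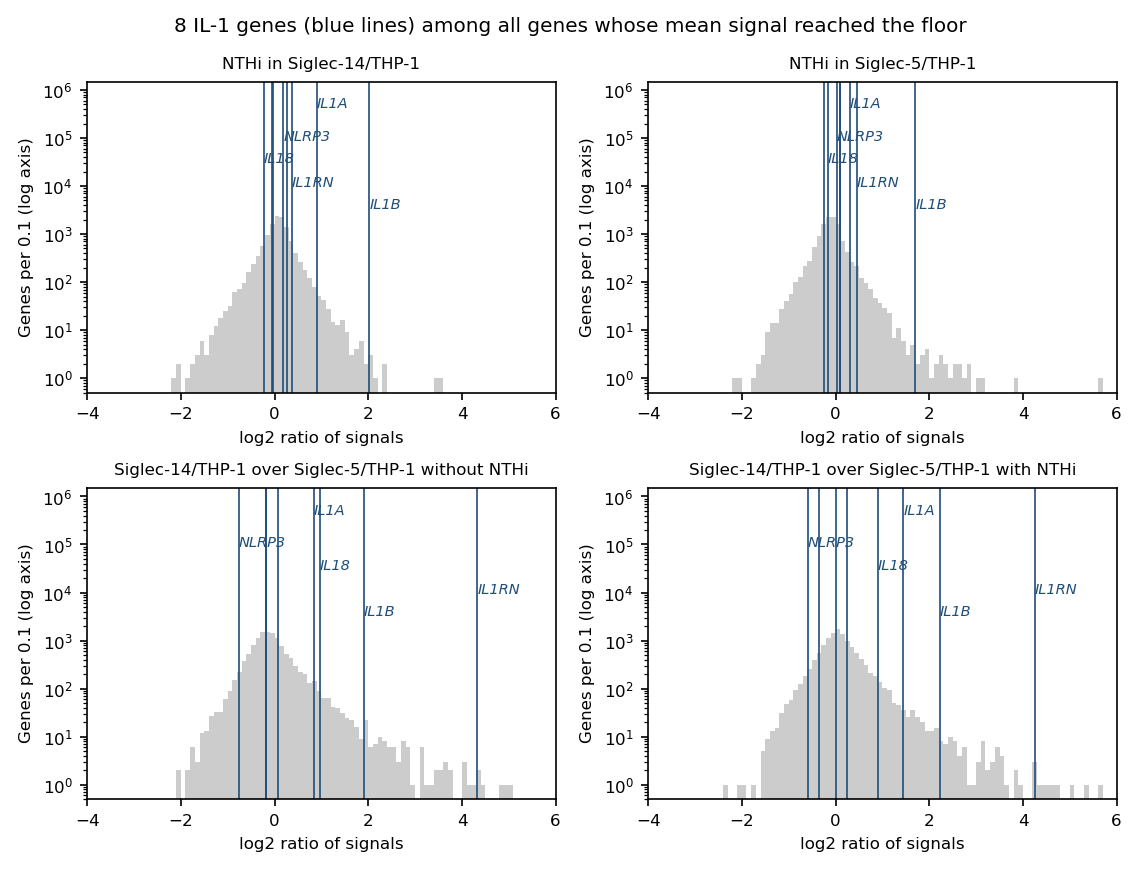
Histograms of the log2 signal ratio of the 12282 genes whose mean signal reached the floor (number of genes per 0.1 log2 unit, log axis) in the 4 comparisons, with blue lines at the 8 members and signals below the floor raised to it. IL1B lies in the upper tail for NTHi, with ranks of 7 and 29, and IL1RN in the upper tail between the sublines, with ranks of 6 and 9.

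The 4 arrays together allow 1 fit with a test, in which cell line and NTHi are additive terms. limma was fitted on the log2 signals of 31981 probe sets, each at the floor or higher on 1 array or more, with an intensity trend for the variance and Benjamini-Hochberg adjustment over all of them. With 1 residual degree of freedom per probe set, its standard errors are those of probe sets of like intensity. They rest on how far the 4 arrays depart from additive terms, pooled over probe sets. The p-values do not contain a gene's own spread between replicate cultures or sublines, which were not made. For NTHi, 1 of 8 members tested was higher, IL1B, and 0 were lower, beside 0.99% of 13935 genes higher and 0.294% lower. The IL1B term was a log2 change of 1.87, with a standard error of 0.174 and an adjusted p of 1.5e-23. IL1RN had a term of 0.41 (standard error 0.152, adjusted p = 0.321) and IL1A of 0.84 (standard error 0.414, adjusted p = 0.755), and neither passed. IL1RN did pass for NTHi with the medians of the arrays made equal (adjusted p = 0.000824) and with quantile normalization (adjusted p = 0.0113). The IL1B call was lost without the intensity trend (adjusted p = 0.48) and with cell line left out of the fit (adjusted p = 1).

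For the cell line, 4 of the 8 members were higher in Siglec-14/THP-1, namely IL1RN, IL1B, IL18 and IL1A, and 1 was lower, NLRP3. The background was 6.24% of genes higher and 4.95% lower. As a log2 difference, the line term was 4.29 for IL1RN (standard error 0.152, adjusted p = 1.18e-169) and 2.07 for IL1B (standard error 0.174, adjusted p = 6.33e-30). It was 0.94 for IL18 (adjusted p = 0.000286), 1.38 for IL1A (adjusted p = 0.0146) and -0.67 for NLRP3 (adjusted p = 0.000719). For IL1A it uses the signal of 11.6 under the floor as it stands. CASP1 (-0.27, adjusted p = 0.357), IL1RAP (0.17, adjusted p = 0.676) and IL1R1 (-0.08, adjusted p = 0.963) did not pass, though CASP1 did with the medians of the arrays made equal (-0.34, adjusted p = 0.0122). Without the trend 0 members passed, with adjusted p-values of 0.188 for IL1RN and 0.198 for IL1B, and 5 of the 8 had an unadjusted p under 0.05.

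This fit cannot test whether the sublines responded differently, and no other test can with 1 array per condition. The log2 response to NTHi in Siglec-14/THP-1 minus that in Siglec-5/THP-1 was 0.32 for IL1B, -0.07 for IL1RN, -0.06 for IL18, 0.17 for NLRP3, -0.16 for CASP1 and 0.18 for IL1RAP. For IL1A it was 0.60 with the signal below the floor raised to it.

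The genes of the pathway around the members were followed in 8 lists of 68 genes, of which 64 have probe sets of their own and 50 reached the floor in mean signal. At the 3-fold threshold 1 was higher with NTHi in Siglec-14/THP-1 and 0 in Siglec-5/THP-1, while 2 were higher and 1 lower in Siglec-14/THP-1 than in Siglec-5/THP-1 without NTHi, and 2 higher and 0 lower with NTHi. Of all 12282 genes at the floor in mean signal, 0.204%, 0.277%, 1.31% and 1.74% were higher and 0.0733%, 0.0407%, 0.122% and 0.0407% lower in the same order. In the limma fit 52 could be tested, of which 4 rose with NTHi and 0 fell, beside 0.99% and 0.294% of all genes tested, and 10 were higher and 4 lower in Siglec-14/THP-1, beside 6.24% and 4.95%. Without the intensity trend, 0 of these passed either term.

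Of 13 genes of IL-1 receptor signaling tested, IRAK2, PELI1 and TRAF6 passed both terms, higher with NTHi and higher in Siglec-14/THP-1. Of all genes tested, 0.99% passed the first and 6.24% the second in these directions, and the share passing both was not counted. IRAK2, a kinase of the receptor complex, had signals of 181, 401, 59.8 and 84.1 in the order used above. It was 2.21-fold higher with NTHi in Siglec-14/THP-1 and 1.405-fold in Siglec-5/THP-1, and 3.03-fold and 4.77-fold higher in Siglec-14/THP-1 than in Siglec-5/THP-1. PELI1, a ubiquitin ligase, read 95.2, 167, 49.2 and 140, and TRAF6, the ubiquitin ligase downstream of the IRAK kinases, read 122, 126, 45.5 and 119. For TRAF6 the resting Siglec-5/THP-1 array was the low one, the other 3 lay close together, and its direction with NTHi in Siglec-14/THP-1 and between the stimulated sublines turned under other scalings. PELI3, a relative of PELI1, read 14.6, 53.2, 35.3 and 37.7, which is at least 3.32-fold for NTHi in Siglec-14/THP-1, and did not pass limma (adjusted p = 0.232). MYD88, the adaptor of the receptor complex, had signals of 691, 670, 581 and 565 and passed neither term.

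NOD2, a sensor of muramyl dipeptide that was listed with the inflammasome sensors, rose with NTHi and was higher in Siglec-14/THP-1. Its signals were 113, 196, 58.8 and 124, and its place in that list does not show a part in an inflammasome. The other 5 genes of that list tested passed neither term, and NLRP1 read 28.5, 21.7, 33.7 and 10.2, the last below the floor. None of the 8 genes for the adaptor, caspases and pore passed for NTHi. This is near the shares of all genes tested, of which 0.99% passed higher and 0.294% lower. PYCARD, the adaptor ASC that joins NLRP3 to caspase-1, read 1105, 1234, 1519 and 1397. GSDMD, whose cleaved product forms the pore, read 122, 126, 107 and 110. NINJ1, a membrane rupture protein, was higher in Siglec-14/THP-1 with 191, 274, 87.0 and 127, and BRCC3, a deubiquitinase of NLRP3, was lower with 698, 847, 1142 and 1018.

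Of the ATP-gated channel and ion route list, KCNN4, P2RX4 and PANX1 of 5 genes were higher in Siglec-14/THP-1. The potassium channel KCNN4 read 502, 588, 270 and 258. Of the restraint list 1 of 6, TRIM16, was higher, with 165, 226, 91.5 and 126. A place in that list does not show that a gene restrains an inflammasome. SERPINB9, an inhibitor of granzyme B, read 16.7, 36.8, 9.05 and 10.1 and stayed near or below the floor. Of 7 other proteases that cut IL-1 family proteins, GZMB, granzyme B, was higher, with 55.9, 49.4, 2.70 and 1.67. Against the floor this is at least 3.49-fold without and at least 3.08-fold with NTHi. Both Siglec-5/THP-1 signals of GZMB lay under the floor, and limma used them as they stand. GZMB entered the fit only through its Siglec-14/THP-1 signals, and it is counted among the 10 list genes higher there. CTSG, cathepsin G, was lower, with 403, 508, 1311 and 1112, or 3.25-fold and 2.19-fold.

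**Figure D4:**
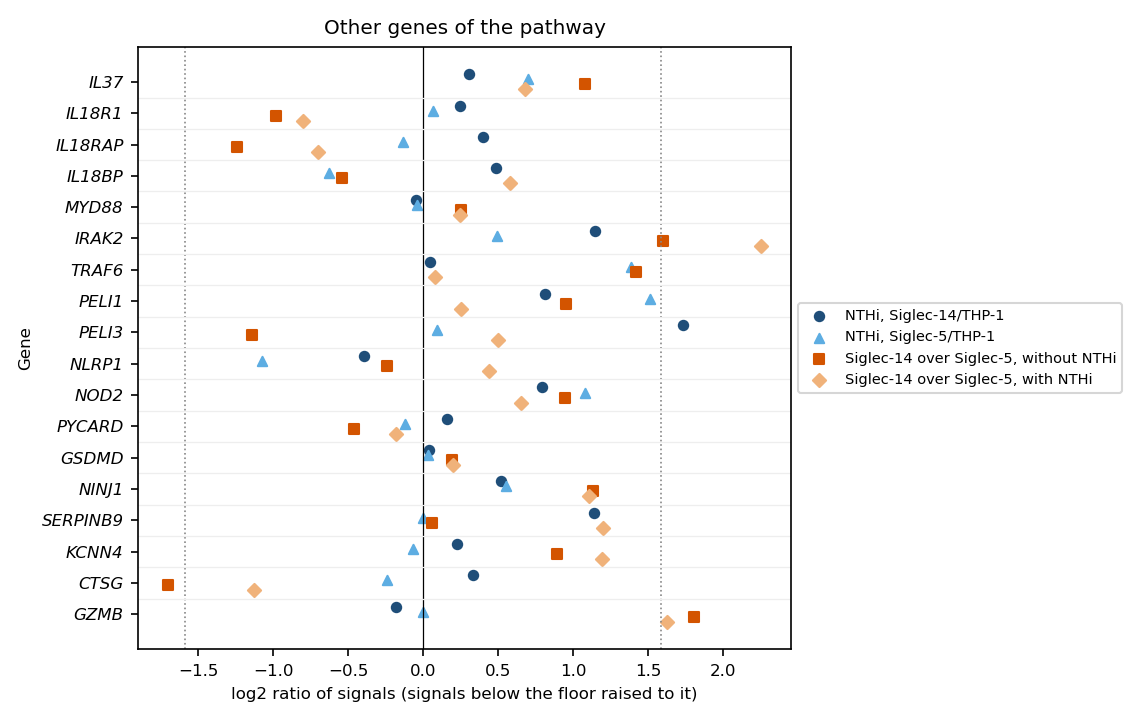
log2 signal ratio (signals below the floor raised to it) in the 4 comparisons for the pathway genes at least 2-fold different in 1 of them and for PYCARD, GSDMD, MYD88, IL18BP and IL18R1, with dotted lines at a ratio of 3. PELI3 passes the line with NTHi in Siglec-14/THP-1, IRAK2 and GZMB pass it between the sublines, and CTSG passes it in the lower direction without NTHi.

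The IL-18 receptor genes went the other way from IL18 between the sublines. IL18R1, the ligand-binding chain, read 225, 266, 444 and 464, and IL18RAP, its accessory chain, 111, 147, 263 and 239. In Siglec-14/THP-1, IL18R1 was 1.98-fold lower without and 1.74-fold lower with NTHi, and IL18RAP 2.36-fold and 1.63-fold lower. Both genes passed limma's line term (-0.89 with adjusted p = 1.12e-06 and -0.97 with adjusted p = 1.35e-06). Of all 13935 genes, 4.95% passed it in this direction. IL18BP, the soluble inhibitor of IL-18, was near the floor with 17, 23.9, 24.7 and 12.6.

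IL1A, IL1B and IL1RN lie in one stretch of chromosome 2 that holds 9 protein-coding genes in RefSeq, all of the IL-1 family. Of these, IL36G, IL36A, IL36B and IL36RN were below the floor on all arrays, and IL1F10 reached it on 2 arrays with at most 22.1. IL37, an IL-1 family member that restrains inflammation, read 39.9, 49.2, 18.9 and 30.7. The receptor stretch on the same chromosome, from IL1R2 to IL18RAP, holds 6 genes, of which IL1R2 and IL1RL2 were below the floor on all arrays.

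Genes most like IL1B and IL1RN were found over the 4 arrays as those with the smallest Euclidean distance between log2 signals, each centered on its own mean, among 11030 genes that every array measured. For IL1B these were CXCL8 (distance 0.378), TNFRSF9 (0.41), ICAM1 (0.476), CCL2 (0.58) and CXCL1 (0.626). All of these, like IL1B, belong to the genes that the study selected on these same arrays. Their likeness is therefore not independent of that selection. For IL1RN they were PHLDA1 (0.485), SPP1 (0.675), PNOC (0.874), TREM2 (1.001) and AXL (1.09). PHLDA1 read 707, 738, 40.9 and 36.8, and SPP1, the gene for osteopontin, 1043, 991, 52.7 and 41.0. With 4 points per gene, these distances describe the arrays and carry no test.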

How the data were processed

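Arrays were quantified by the authors with GCOS (GeneChip Operating Software, named in the submitters' processing notes with the version not given in the sources used here) and standardized on summed signal. The deposited values are linear intensities, 1 for each probe set, and their sums differ between arrays. They were used without further scaling. Of 54675 probe sets, 41097 are annotated to 1 gene, 1801 to several and 11777 to none, and 0 symbols needed updating. Ratios used signals raised to the median of all signals. With 1 array per condition, pairwise comparisons have no test, and the number of arrays limits the precision. limma 3.58.1 (R 4.3.3) was run without 62 control probe sets, and its code was tried on simulated data. The simulated spread depended on intensity alone, as the fit assumes, so this cannot show whether that assumption holds for these arrays. Python 3.11.15 with numpy 2.4.6, pandas 2.3.3 and matplotlib 3.10.9 did the rest. Promoter windows are RefSeq's for GRCh38.p14.

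The text names the 9 members, list genes at least 2-fold different in a comparison, PYCARD, GSDMD, MYD88 and IL18BP, and the 5 genes most like IL1B or IL1RN. IRAK4 has no probe set of its own here. IL18R1, BRCC3, TRIM16, P2RX4, PANX1, the genomic neighbors and the cell type markers, above or below the floor, were named after their values were seen. The members and lists were chosen with earlier results of these data known. Alternatives changed the floor, pseudocount, threshold, scaling, choice among probe sets and limma settings.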

Additional observations from a re-analysis of the deposited data

Results flagged for a closer look

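CASP1 on its brightest probe set had a log2 ratio with NTHi of -0.060 in Siglec-14/THP-1 and 0.10 in Siglec-5/THP-1, opposite in sign, but with the median over its probe sets the latter was -0.24. Between the sublines, IL1R1 had a log2 ratio of -0.18 without NTHi and 0.013 with NTHi, and the latter ran from -0.113 to 0.013 over the scalings, so its sign is not settled. Each value compares single arrays, and neither difference was tested.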

How the results depend on the processing

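Of the 9 genes, the number at least 3-fold different with NTHi in Siglec-5/THP-1 was 1 (IL1B) and became 0 with the floor at the 75th percentile of all signals (105), with a floor from genes of other tissues, the 95th percentile of their probe sets (422), with a pseudocount of 16 in place of the floor, at a 4-fold threshold and with the median over the probe sets of a gene. The floor of 422 also gave 0 with NTHi in Siglec-14/THP-1. Between the sublines the 2 genes became 1 (IL1RN) without NTHi at the floors of 105 and 422 and at the 4-fold threshold, and 1 with NTHi at the floor of 422. In limma, the NTHi count of 1 became 0 without the intensity trend and 0 with cell line left out, and 2 (IL1B and IL1RN) with the arrays' medians made equal or with quantile normalization. The line count of 5 became 0 without the trend. The cause was not tested. Over all settings, 49 of 64 counts and 370 of 400 ratios stayed within 1.5 times the value reported, and no ratio of 3-fold or more changed sign. The 400 hold the ratios of single members and also the IL1RN minus IL1B differences. Scaling a whole array by a factor cannot change those differences. IL1R2 is among the 400 too, though it lay under the floor on all arrays and was nearly always 0. Among smaller ratios 5 changed sign: IL1R1 between the stimulated sublines under all 4 other scalings (0.013 to between -0.038 and -0.113), and CASP1 with NTHi in Siglec-5/THP-1 (0.10 to -0.24) with the median over probe sets. Over all 13935 genes, limma's line term called 869 higher and 690 lower in Siglec-14/THP-1, but 1032 and 2213 with equal medians and 1541 and 1576 of 13934 with quantile normalization. For NTHi it called 138 and 41, against 297 and 67, and 228 and 104. Without the trend 0 genes passed either term (749 for NTHi and 1659 for the line at an unadjusted p under 0.05), and 0 passed for NTHi with the line left out (289 at an unadjusted p under 0.05).

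No paired analysis was possible because each condition has 1 array and the labels give no replicate numbers. Leaving out an array was not run, since 0 residual degrees of freedom remain. IL1A, IL1R1 and IL18BP lie near the floor, where single readings vary most.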
